A study of Drosophila melanogaster with 6 samples.

Results

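The 7 genes Uhg1, Uhg2, Uhg3, Uhg4, Uhg5, Uhg7 and Uhg8 are the non-coding hosts of small nucleolar RNAs (snoRNAs) in Drosophila melanogaster, listed as lncRNA genes. They were found by name among the 17483 genes of the deposited table, which gives their names in its description column. They were picked because their values on the 2 foods had been seen to differ, so all their differences between foods are given here as description. All 7 also passed the filter on low values that left 10366 genes for testing.

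The flies were w1118, a laboratory strain with white eyes that serves as wild type here, and their brains were dissected by hand at 15 days of age. In 3 libraries the flies had been kept on normal food to which spermidine, a natural polyamine, was added, and in the other 3 on normal food alone. The labels give no dose, duration or sex, and do not say whether the libraries came from separate cultures. Every p-value therefore sets a difference between foods only against the spread of these 6 libraries within their foods, and that spread may be technical. Levels are FPKM (fragments scaled by transcript length and by the library's mapped fragments, as deposited), and the authors' mean normalized count for each food is given beside them.

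Host genes of this kind are transcribed and spliced, and their snoRNAs are cut out of the introns after splicing. Each snoRNA pairs with ribosomal RNA and guides a protein complex to it. The C/D type guides 2′-O-methylation by fibrillarin, and the H/ACA type guides pseudouridylation by the enzyme that the fly gene Nop60B encodes. The spliced exons of such hosts have no known protein product, so a level measured by messenger RNA sequencing is that of the spliced host, not of the snoRNAs.

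The positions of all 7 genes in the table (gene models of Ensembl build 82) were identical to those in the BDGP6 annotation of Ensembl release 115, from which exons and snoRNA genes were taken. Uhg1 (FBgn0045800) lies on 2R:17699097-17703344, plus strand, and has 17 exons with a snoRNA gene in each of its 16 introns. Uhg5 (FBgn0083123, 2R:14621601-14624498, plus strand) has 11 or 12 exons and 11 snoRNA genes. Uhg4 (FBgn0083124, 2R:9095273-9097312, plus strand) has 8 exons and 7 snoRNA genes. Uhg2 (FBgn0063449, 2L:9893805-9895003, minus strand) has 5 exons and 4 snoRNA genes. Uhg3 (FBgn0259936, 2L:20647533-20648848, plus strand) has 4 or 5 exons, depending on the transcript, and 3 snoRNA genes. Uhg7 (FBgn0083121, 3L:1666288-1667307, minus strand) has 5 exons and 4 snoRNA genes, and Uhg8 (FBgn0083120, 3L:20453293-20454731, plus strand) has 5 exons and 3 snoRNA genes.

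The hosts share a regular layout. In the transcript with most exons of each gene there are 50 introns in all, and 47 of them hold exactly 1 snoRNA gene while 3 hold none. The introns are short, with a median of 184.5 bases and a range of 56 to 408. The distance from the 3′ end of a snoRNA gene to the next exon varies little, with a median of 71 bases and a range of 51 to 88. The distance from the upstream exon to the snoRNA gene has a median of 37 bases but runs from 27 to 252. The spliced transcripts are short as well, from 382 bases for the shorter Uhg2 transcript to 1065 bases for the longer Uhg1 transcript.

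**Figure D1:**
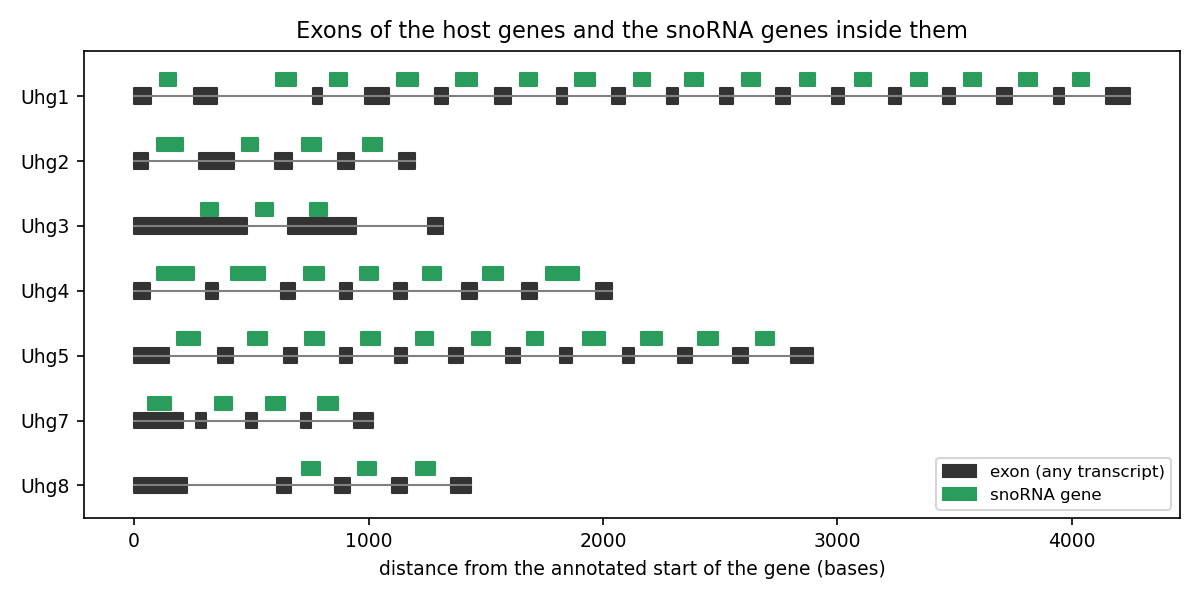
Exons (dark boxes, union of all transcripts) and snoRNA genes (green boxes) of the 7 hosts, drawn by the distance in bases from the annotated start of each gene. Exons and snoRNA genes alternate along Uhg1 with its 16 snoRNA genes, Uhg5 with 11, Uhg4 with 7 and Uhg2 with 4, while in Uhg3 and Uhg7 some snoRNA genes lie over an exon of a transcript, and Uhg8 has an intron without one.

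The names of the 48 snoRNA genes give the target for 31 of them. By name, 21 guide 2′-O-methylation of 28S ribosomal RNA (Me28S), 9 guide 2′-O-methylation of 18S ribosomal RNA (Me18S) and 1 guides pseudouridylation (Psi). A further 4 are named as orphans, without a known target, and 13 carry other names. All 3 snoRNAs of Uhg3 carry a Me28S name and all 3 of Uhg8 a Me18S name, whereas Uhg5 holds 7 of the first kind, 3 of the second and 1 orphan.

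The hosts covered a wide range of levels. Averaged over the 6 libraries, Uhg4 was highest at 93.5 FPKM, above 90.7% of the genes tested. Uhg2 (29.5 FPKM), Uhg5 (26.8 FPKM), Uhg1 (19.9 FPKM) and Uhg3 (15.3 FPKM) followed, and the ranges of neighbours among these 4 over the 6 libraries overlapped. Uhg8 averaged 5.01 FPKM and Uhg7 1.16 FPKM, each below every library value of the gene above it. The order was not the same on both foods: on spermidine food every Uhg2 value lay above every Uhg5 value, while on normal food Uhg2 and Uhg5 overlapped. Conversely, the ranges of Uhg1 and Uhg3 overlapped on spermidine food but not on normal food, where Uhg1 was above Uhg3. These orders rest on FPKM, and the authors' counts did not scale with length in the same way. The authors' mean count on normal food, per FPKM and per kilobase of the longest spliced transcript, was 42.6 for Uhg1 and 37.8 for Uhg5. It was 23.9 for Uhg2 and 19.1 for Uhg4, so the order of these hosts may differ by counts.

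Uhg1, the host with the most snoRNA genes, had 10.3, 11.2 and 10.7 FPKM in spermidine food replicates 1, 2 and 3, against 35.3, 27.9 and 24.2 FPKM in normal food replicates 1, 2 and 3. All 3 libraries on spermidine food lay below all 3 on normal food, and they were close together. The means were 10.7 ± 0.459 FPKM on spermidine food and 29.1 ± 5.68 FPKM on normal food (SD, n = 3 each), which puts spermidine food at 36.9% of normal food. The log2 fold change on the log2(FPKM + 1) scale, fitted over all genes with limma, was -1.34 ± 0.13 (SE). In the authors' deposited table the mean normalized count of Uhg1 was 479 on spermidine food and 1321 on normal food. Its signed fold change of -2.46 in that table ranks 1 from the bottom among all 17483 genes. That score is not the plain ratio of the counts, which was 2.76 for Uhg1 as normal over spermidine food. It can lie much closer to no change, as for the fat body gene Lsp2. Lsp2 is scored 1.14 with mean counts of 1274 on spermidine food and 19.8 on normal food. The rank therefore belongs to the score, not to the size of the change. The fitted FPKM change ranks 32 from the bottom among the 10366 tested genes.

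Uhg5 had 18.4, 21.7 and 19.0 FPKM in spermidine food replicates 1, 2 and 3, against 41.5, 29.6 and 30.6 FPKM in normal food replicates 1, 2 and 3. The foods did not overlap, and normal food replicate 1 stood above the other libraries of its food. The means were 19.7 ± 1.74 FPKM on spermidine food and 33.9 ± 6.63 FPKM on normal food (SD, n = 3 each), with a log2 fold change of -0.74 ± 0.14 (SE).

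Uhg3 had 9.63, 12.5 and 10.3 FPKM in spermidine food replicates 1, 2 and 3, against 23.6, 19.8 and 15.8 FPKM in normal food replicates 1, 2 and 3. Its foods did not overlap, although spermidine food replicate 2 and normal food replicate 3 came within a few FPKM of each other. The log2 fold change was -0.80 ± 0.16 (SE), with spermidine food at 54.9% of normal food by mean FPKM.

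Uhg4, the most abundant host, had 82.8, 86.7 and 77.3 FPKM in spermidine food replicates 1, 2 and 3, against 109, 101 and 103 FPKM in normal food replicates 1, 2 and 3. The foods did not overlap, and of the 4 hosts that lay lower on spermidine food without overlap its log2 fold change was the closest to 0. Its log2 fold change was -0.34 ± 0.05 (SE), with spermidine food at 78.6% of normal food by mean FPKM.

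Uhg2 went the other way, with 31.7, 32.1 and 32.3 FPKM in spermidine food replicates 1, 2 and 3, against 27.5, 29.7 and 23.9 FPKM in normal food replicates 1, 2 and 3. All 3 libraries on spermidine food were above all 3 on normal food. The log2 fold change was 0.24 ± 0.08 (SE), and the means were 32.0 ± 0.332 FPKM on spermidine food and 27.0 ± 2.94 FPKM on normal food (SD, n = 3 each).

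The 2 hosts of low level did not separate the foods. Uhg8 had 5.41, 5.35 and 3.51 FPKM in spermidine food replicates 1, 2 and 3, against 5.27, 5.20 and 5.33 FPKM in normal food replicates 1, 2 and 3. Its lowest value was spermidine food replicate 3, and the other 5 libraries lay together. Uhg7 had 1.04, 0.538 and 1.82 FPKM in spermidine food replicates 1, 2 and 3, against 1.29, 0.928 and 1.34 FPKM in normal food replicates 1, 2 and 3. Both the highest and the lowest value of Uhg7 were on spermidine food. The log2 fold changes were -0.14 ± 0.14 (SE) for Uhg8 and -0.08 ± 0.22 (SE) for Uhg7. In brain tissue, fewer cells of a type and less RNA per cell cannot be told apart for any of the hosts.

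**Figure D2:**
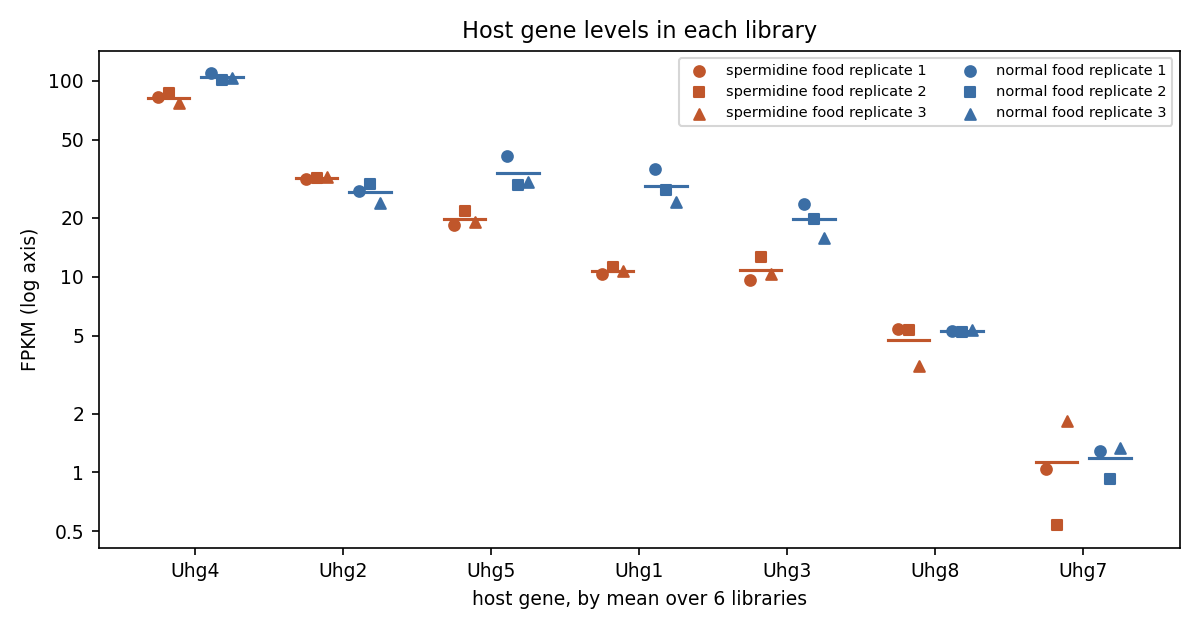
FPKM of each host in each of the 6 libraries on a log axis, with spermidine food (orange) left of normal food (blue), symbols for the replicate number and a bar at the mean of 3 libraries. Uhg4, Uhg5, Uhg1 and Uhg3 lay lower on spermidine food without overlap, Uhg2 lay higher, and Uhg8 and Uhg7 overlapped.

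At a Benjamini-Hochberg adjusted limma p of 0.05 over all 10366 genes, 4 of the 7 hosts (Uhg1, Uhg3, Uhg4 and Uhg5) were past the threshold with lower levels on spermidine food, where 1.52% of all genes were. None of the 7 was past it with a higher level, where 3.21% of all genes were. The same 4 hosts were lower without overlap between the foods, as were 10.8% of all genes, and Uhg2 was higher without overlap, as were 17.2% of all genes. The mean log2 value was lower on spermidine food for 6 of the 7, against 42.4% of all genes. With the p-values of the authors' deposited table, adjusted here over the tested genes, the same 4 were past 0.05 and lower, where 8.7% of all genes were. Since these values had chosen the hosts, the counts describe them and nothing is drawn from them. Which hosts pass depended on single libraries: leaving out spermidine food replicate 3 left none of the 7 past the threshold, while only Uhg1 was past it without spermidine food replicate 1 or without normal food replicate 2. Uhg1 and Uhg4 were past it without spermidine food replicate 2, Uhg1 and Uhg5 without normal food replicate 1, and Uhg1 and Uhg3 without normal food replicate 3.

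The authors' counts and the FPKM values gave the same direction and nearly the same size for the hosts with more than a few counts. In the authors' deposited table the mean counts of Uhg5 were 609 on spermidine food and 1035 on normal food, those of Uhg3 were 202 on spermidine food and 338 on normal food, and those of Uhg4 were 784 on spermidine food and 981 on normal food. Uhg2 had mean counts of 315 on spermidine food and 271 on normal food in that table, and Uhg8 had 74.98 on spermidine food and 83.5 on normal food. Uhg7 had only 0.32 counts on spermidine food and 2.54 on normal food in the authors' deposited table, so no fold is given from them.

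**Figure D3:**
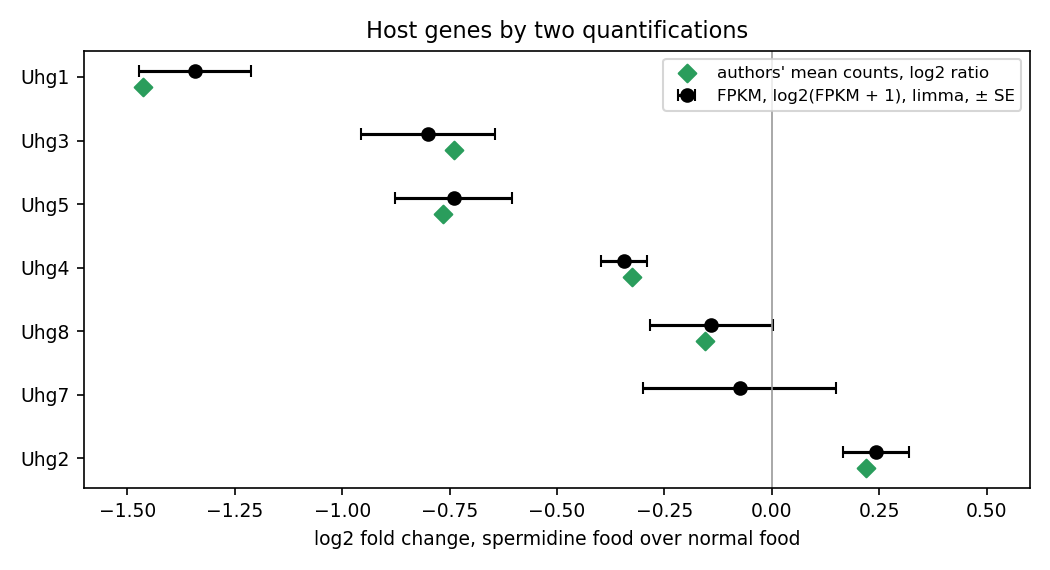
Log2 fold change of each host, spermidine food over normal food, from FPKM (black points with SE, limma on log2(FPKM + 1)) and as the log2 ratio of the authors' mean counts (green diamonds). Uhg1 has the lowest value by both, at -1.34 from FPKM, Uhg2 is the only host above 0, and Uhg7 has no diamond because its counts are below 3 on both foods.

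The makeup of the host pool was not the same on the foods. The 7 hosts summed to 159, 170.1 and 155 FPKM in spermidine food replicates 1, 2 and 3, against 244, 214 and 205 FPKM in normal food replicates 1, 2 and 3. Uhg1 made up 6.49%, 6.61% and 6.88% of that sum in spermidine food replicates 1, 2 and 3, against 14.5%, 13.0% and 11.8% in normal food replicates 1, 2 and 3. The share of Uhg2 was 19.9%, 18.8% and 20.9% on spermidine food, against 11.3%, 13.9% and 11.7% on normal food. Neither share overlapped between the foods, while that of Uhg4 did, with 49.9% to 52.0% on spermidine food and 44.9% to 50.6% on normal food. For Uhg2 this was fixed beforehand, since it was higher and the sum lower without overlap. All shares come from the values that had chosen the hosts and only describe them. Their size also depends on how FPKM scales each host by length.

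A ratio between 2 hosts in the same library does not depend on how the libraries are scaled. Its size still depends on how FPKM scales each host by length. Uhg1 relative to Uhg2 was 0.326, 0.351 and 0.330 in spermidine food replicates 1, 2 and 3, against 1.28, 0.938 and 1.01 in normal food replicates 1, 2 and 3. Uhg5 relative to Uhg2 was 0.581 to 0.676 on spermidine food and 0.996 to 1.51 on normal food. Uhg3 relative to Uhg2 was 0.304 to 0.391 on spermidine food and 0.663 to 0.857 on normal food, and Uhg4 relative to Uhg2 was 2.39 to 2.70 on spermidine food and 3.40 to 4.33 on normal food. That these 4 ratios do not overlap between the foods is set by the choice of genes, since each numerator was lower and Uhg2 higher without overlap, and the values only describe the sizes.

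**Figure D4:**
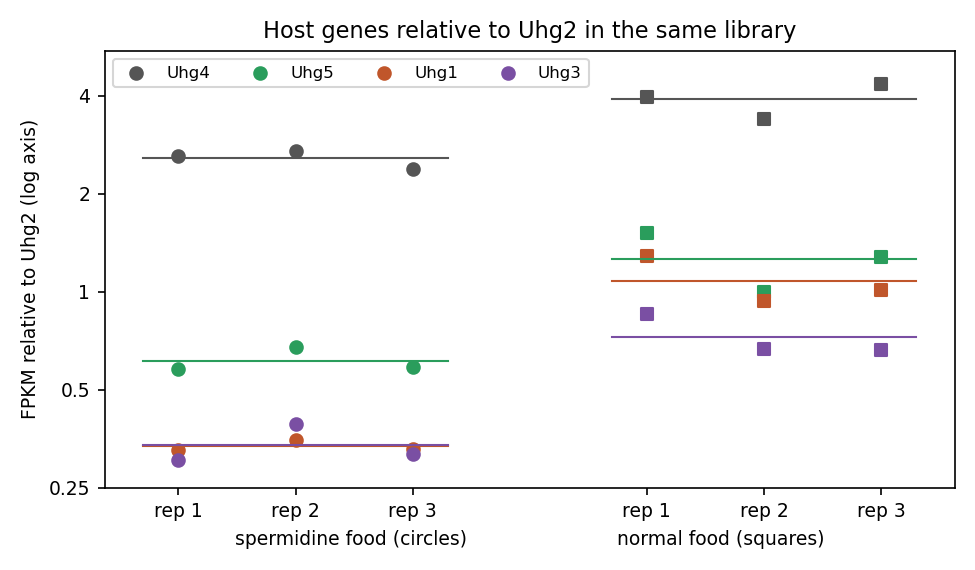
FPKM of Uhg4, Uhg5, Uhg1 and Uhg3 divided by that of Uhg2 in the same library, on a log axis, for spermidine food (circles, left) and normal food (squares, right), with a line at the mean. All 4 ratios are lower in every spermidine library, and that of Uhg1 is 0.326 to 0.351 there against 0.938 to 1.28 on normal food.

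Within a food, the 4 hosts that were lower on spermidine food also had their highest value in the same library. On normal food this was replicate 1 for Uhg1, Uhg3, Uhg4 and Uhg5, and on spermidine food it was replicate 2 for the same 4 genes. Normal food replicate 1 was also the library with the lowest summed level of 6 photoreceptor genes, at 1452 FPKM, against 9871 and 6259 FPKM in normal food replicates 2 and 3, and with the highest summed level of 4 muscle genes, at 32.6 FPKM. Spermidine food replicate 2 likewise had the lowest photoreceptor sum of its food, at 9083 FPKM, against 12640 and 11070 FPKM in spermidine food replicates 1 and 3. Its muscle sum was the highest of its food, at 16.8 FPKM. Of normal food replicates 2 and 3, replicate 2 had the higher photoreceptor sum and the lower muscle sum. Uhg1 and Uhg3 were higher there, at 27.9 and 19.8 FPKM, against 24.2 and 15.8 FPKM in replicate 3. Uhg4 and Uhg5 were lower there, at 101 and 29.6 FPKM, against 103 and 30.6 FPKM. On spermidine food, Uhg1, Uhg3 and Uhg5 were lowest in replicate 1, with the highest photoreceptor sum, and Uhg4 in replicate 3. A link between these sums and the hosts was not tested. Without normal food replicate 1 the log2 fold changes were -1.20 for Uhg1, -0.59 for Uhg5, -0.67 for Uhg3, -0.31 for Uhg4 and 0.26 for Uhg2.

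The libraries differed in markers of tissues around the brain as well as in food. Of 6 fat body genes 4 passed the test as higher on spermidine food, and the summed level was 9628 to 10638 FPKM on spermidine food and 1909 to 2510 FPKM on normal food. The storage protein gene Lsp2 had the lowest level of the 6 on normal food, with 173 ± 153 FPKM on spermidine food and 1.57 ± 0.975 FPKM on normal food (SD, n = 3 each). The yolk protein genes among the 6 are also markers of female flies. Of 4 haemocyte genes 1 was called higher, with sums of 25.1 to 26.2 FPKM on spermidine food and 14.3 to 22.3 FPKM on normal food. At an unadjusted limma p under 0.05, 3 of the 4 were higher, as were 3 by the authors' adjusted p-values. Over all 10366 genes, 1380 and 850 were higher by the same measures. The 6 photoreceptor genes summed to 9083 to 12640 FPKM on spermidine food and 1452 to 9871 FPKM on normal food, with none called by limma, none at an unadjusted p under 0.05 and none by the authors' p-values. Of 4 germ line genes 3 were below 0.5 FPKM in every library. The 5 neuronal markers, present throughout as the brain label implies, summed to 1786 to 1790 FPKM on spermidine food and 1814 to 1889 FPKM on normal food. None of these 5 was called by limma and 1 was lower at an unadjusted p under 0.05. By the authors' adjusted p-values 3 of the 5 were lower, where 8.7% of all genes were. With upper-quartile scaling all 5 had a lower mean on spermidine food, against 3 without it, but that scaling also lowered the median of all genes to -0.02. The 5 glial markers summed to 1471 to 1550 FPKM on spermidine food and 1327 to 1484 FPKM on normal food, and none was called by limma. Only Indy of the 5 was below an unadjusted limma p of 0.05, and only Indy passed by the authors' adjusted p-values. It was higher on spermidine food without overlap, with 33.4 FPKM there and 20.8 FPKM on normal food. Among sex markers, lncRNA:roX1, a male-specific RNA of dosage compensation, had 6.68 ± 0.407 FPKM on spermidine food and 8.89 ± 0.792 FPKM on normal food (SD, n = 3 each), which is -0.36 on the log2 scale with an adjusted limma p of 0.0562. It was past the threshold as lower in 3 of 13 limma alternatives, both scalings among them, with adjusted limma p-values of 0.0347 to 0.179 over the 13, and by the authors' adjusted p-values. The part of these tissues and of sex in the host values was not tested.

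The snoRNAs themselves were all but absent from these libraries, which a messenger RNA kit produced from 100 ng of RNA. Of the 47 hosted snoRNA genes in the table, 43 had an FPKM of 0 in all 6 libraries. Only 15 of the 47 had a mean count of 0 on both foods, so an FPKM of 0 need not mean that no read was counted. In the authors' deposited table the mean counts of the 47 summed to 45.0 on spermidine food and 69.9 on normal food. Those of the 7 hosts summed to 2464 on spermidine food and 4032 on normal food in that table. The 3 hosted snoRNAs that passed the filter are all in Uhg4, and none passed the test with limma or with the authors' p-values. Of these 3, 2 were below an unadjusted limma p of 0.05, where 21.1% of all genes were, but 1 of the 2, snoRNA:Or-aca5, passed the filter only through the normal food libraries, so nothing is read from that count. Another hosted snoRNA had FPKM above 0 but did not pass the filter: snoRNA:Me18S-A1576 of Uhg2 was listed at 164, 56.8 and 0 FPKM in spermidine food replicates 1, 2 and 3, and at 0 in all 3 normal food libraries. Its mean counts in the authors' deposited table were 3.37 on spermidine food and 2.59 on normal food.

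The snoRNA:Or-CD2 gene, an orphan by name, had 57.5, 26.5 and 31.7 FPKM in spermidine food replicates 1, 2 and 3, against 95.5, 68.6 and 59.4 FPKM in normal food replicates 1, 2 and 3. The foods did not overlap, yet the authors' deposited table gives it a mean count of 0 on both foods, so the 2 quantifications differ for this gene. The snoRNA:Or-aca5 gene, also an orphan by name, was listed at 0, 9.06 and 0 FPKM in spermidine food replicates 1, 2 and 3, against 26.1, 9.38 and 18.04 FPKM in normal food replicates 1, 2 and 3. The snoRNA:Psi28S-2949 gene was listed at 0 in spermidine food replicates 1 and 2 and in normal food replicate 3. The levels of the mature snoRNAs cannot be read from values this sparse.

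Several hosts share bases with other genes, and the sources used here do not give the strand setting of the authors' counting, although the library kit keeps strand. Of the 491 exonic bases of Uhg4, 132 lie within Ctu1 on the opposite strand, a gene at 9.48 ± 0.632 FPKM on spermidine food and 8.80 ± 0.508 FPKM on normal food (SD, n = 3 each), where Uhg4 itself had 82.2 FPKM on spermidine food and 105 FPKM on normal food. Of the 1065 exonic bases of Uhg1, 10 lie within CG6424 on the opposite strand. Of the 421 exonic bases of Uhg7, 116 lie within the ribosomal protein gene RpL23A on the same strand by the table's positions, and all of them do in Ensembl release 115. RpL23A had 675 FPKM on spermidine food and 668 FPKM on normal food, so the value of Uhg7 depends on how reads were split between a very abundant gene and a rare one and is uncertain. Of the 496 exonic bases of Uhg8, 42 lie within atk on the opposite strand, whose authors' mean count was 267 on spermidine food and 136 on normal food. No exonic overlap was found for Uhg2, Uhg3 or Uhg5 in the table's positions.

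The genes next to the hosts were read as well. For each host the 3 nearest tested genes on either side that do not overlap it were taken from the same fit. The median log2 fold change of these 6 neighbours was -0.01 for Uhg1, 0.04 for Uhg3, 0.03 for Uhg4, 0.40 for Uhg5, 0.005 for Uhg2, -0.01 for Uhg7 and 0.17 for Uhg8. None of the neighbours of Uhg1, Uhg2, Uhg3, Uhg4 or Uhg7 was past the threshold. Of the neighbours of Uhg5, 3 were higher on spermidine food, the direction opposite to Uhg5 itself: Had2, the immune peptide gene Mtkl and lncRNA:CR42715, with Mtkl at 53.9 FPKM on spermidine food and 10.8 FPKM on normal food. Had2, Mtkl and lncRNA:CR42715 lie 5412, 14040 and 14863 bases from Uhg5, all on the same side. The 3 neighbours on its other side, the nearest at 281 bases, had log2 fold changes of 0.03 to 0.12, and none was called. Over all genes 3.21% were called higher. Of the neighbours of Uhg8, Tdh was higher on spermidine food, and Uhg8 lies 12213 bases from it. Of 13 limma alternatives Mtkl was past the threshold in 11, Had2 in 9 and Tdh in 6, and of the 12 that could be fitted lncRNA:CR42715 was in 6. Among the neighbours of Uhg1, swi2 stood out, a choice made after its values were seen, with 3.72 FPKM on spermidine food and 8.48 FPKM on normal food, a log2 fold change of -0.95 ± 0.24 (SE) and an adjusted limma p of 0.082.

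Most fly snoRNAs outside these hosts lie in introns of protein-coding genes. By position, 86 other genes of the table hold at least 1 snoRNA gene on the same strand, and 82 of them were tested. Of these 1 passed the test, CG10576, which holds 5 snoRNA genes and rose to 50.7 ± 0.592 FPKM on spermidine food, against 44.8 ± 1.01 FPKM on normal food (SD, n = 3 each). This is 0.17 ± 0.03 (SE) on the log2 scale with an adjusted limma p of 0.038. CG10576 was past the threshold in 4 of 13 limma alternatives, with adjusted p-values of 0.0351 to 0.142, and was lost whenever a library was left out. None of the 82 fell by limma. At an unadjusted limma p under 0.05 were 16 of the 82, of which 13 were higher and 3 lower, where 21.1% of all genes were. By the authors' adjusted p-values 10 were higher and 5 lower, where 850 of all 10366 genes were higher and 902 lower. Over all genes 4.74% passed the test in either direction. The median log2 fold change of the 82 was 0.05, against 0.02 for all genes and -0.34 for the 7 Uhg hosts. The next smallest p-values belonged to CG3902 (log2 fold change 0.70), Ddx56, an RNA helicase gene (-0.19), and Tudor-SN, a nuclease domain gene (0.23), and none of these 3 passed the threshold. With upper-quartile scaling only Ddx56 of the 82 was past it, as lower. With median-ratio scaling CG10576 and Tudor-SN were past it as higher and Ddx56 as lower. CG3902 was past it as higher without normal food replicate 1, and Ddx56 as lower without normal food replicate 2.

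Arpc2 and dom hold the most snoRNA genes of these other hosts. Arpc2, with 17 snoRNA genes, had 22.9 FPKM on spermidine food and 22.7 FPKM on normal food, and dom, with 15, had 34.2 FPKM on spermidine food and 30.5 FPKM on normal food. Of the hosts that encode ribosomal proteins 28 were tested, and their median log2 fold change stood at 0.07. None of these 28 was called by limma, 3 were higher at an unadjusted p under 0.05, and 5 were higher by the authors' adjusted p-values. Over all 10366 genes, 1380 and 850 were higher by the same measures. The other annotated non-coding hosts that were tested, 2 of 3, were lncRNA:CR42491 and lncRNA:CR45184, and neither passed the test. lncRNA:CR42491 had 201 FPKM on spermidine food and 179 FPKM on normal food. lncRNA:CR45184 had 5.002 FPKM on spermidine food and 7.31 FPKM on normal food. By position lncRNA:CR42491 lies within RpL22 and lncRNA:CR45184 within Sf3b3, on the same strand, and each pair shares the snoRNA genes of the non-coding host. The authors' mean count of lncRNA:CR45184 was 0 on both foods, so the 2 quantifications differ for it. The levels of both may depend on how reads were split and are uncertain. Among all 704 tested genes annotated as non-coding RNA, 22 passed the limma test as lower and 16 as higher, where 1.52% of all genes passed as lower and 3.21% as higher. Their median log2 fold change was -0.01, with a lower mean in 379 and a higher one in 325, and with upper-quartile scaling 32 passed as lower and 15 as higher.

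The genes that make and use snoRNAs were read from 7 lists of 54 genes, all of which were tested. None passed the limma test, and 10 were below an unadjusted p of 0.05 (9 of them higher), where 21.1% of all genes were. By the authors' adjusted p-values 3 were lower, where 8.7% of all genes were. Their median log2 fold change was 0.04. It was -0.003 when the libraries were scaled by their upper quartile, and 26 rather than 39 of the 54 then had a higher mean on spermidine food. This scaling moved all genes alike: their median went from 0.02 to -0.02. Of the 10366 genes, 4337 rather than 5974 then had a higher mean.

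The 8 core proteins of the snoRNA particles had a median log2 fold change of 0.14, or 0.09 with upper-quartile scaling. Of the 8, 7 had a higher mean on spermidine food under both. At an unadjusted limma p under 0.05, 5 of the 8 were higher, where 1380 of all 10366 genes were. By the authors' adjusted p-values 0 of the 8 passed. The smallest p-values belonged to hoip, a protein that binds the kink-turn of C/D snoRNAs, with 16.5 ± 0.549 FPKM on spermidine food and 14.2 ± 0.685 FPKM on normal food (SD over the 3 libraries, limma adjusted p = 0.0826), and to Nop10 of the H/ACA particle, with 49.1 ± 4.54 FPKM on spermidine food and 41.3 ± 2.09 FPKM on normal food (limma adjusted p = 0.139). Fib, the methylase fibrillarin, had 13.7 FPKM on spermidine food and 12.8 FPKM on normal food. Nop60B, the pseudouridine synthase, which is itself a host of 7 snoRNA genes, had 15.5 FPKM on spermidine food and 14.8 FPKM on normal food, with a log2 fold change of 0.06 ± 0.05 (SE).

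The lists of steps before and after the particle were close to the median of all genes. The 5 assembly and Cajal body factors had a median log2 fold change of 0.05, with pont, an ATPase of particle assembly, at 0.11 and WDR79 at -0.11. The 13 factors of intron release and exonucleolytic trimming had a median of 0.04, with the exonuclease Rat1 at 0.10 and the exosome subunit Rrp4 at 0.11. The 10 factors of nonsense-mediated decay and the exon junction complex, which in mammals degrade spliced snoRNA host RNAs, had a median of 0.04, with Smg5 at 0.08 and Smg6 at -0.08. The signs of these last 2 medians changed with upper-quartile scaling, to -0.01 each, as did that of all genes, to -0.02.

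The 10 genes of RNA polymerase I and nucleolar growth had a median log2 fold change of 0.06. Tif-IA, the initiation factor of polymerase I, had 28.8 ± 1.31 FPKM on spermidine food and 32.1 ± 0.660 FPKM on normal food (SD, n = 3 each). This is -0.15 ± 0.04 (SE) on the log2 scale with an adjusted limma p of 0.112. It was the one listed gene past the threshold under upper-quartile scaling, with an adjusted limma p of 0.0486. The other gene of this list with a small p was Surf6, with a log2 fold change of 0.18 ± 0.06 (SE). The 4 regulators of TOP messenger RNAs, whose start sequence snoRNA hosts share in vertebrates, had a median of -0.03, with La at 0.09 and larp at -0.07. The 4 factors of the promoters of such genes had a median of -0.01, with pzg at 0.09 and Dref at -0.06.

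**Figure D5:**
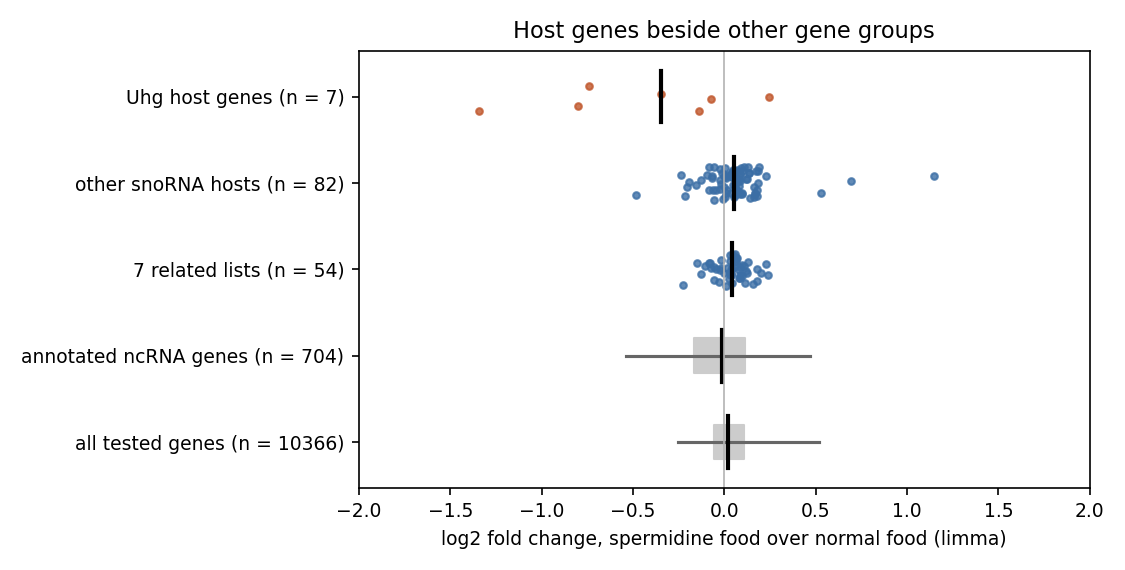
Log2 fold change (limma, spermidine food over normal food) of the 7 Uhg hosts, the 82 other snoRNA hosts and the 54 genes of the 7 related lists as points, and of 704 annotated non-coding RNA genes and all 10366 genes as quartile boxes with lines from the 5th to the 95th percentile. Black bars mark the medians, which are -0.34, 0.05, 0.04, -0.01 and 0.02 from top to bottom.

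Genes whose pattern over the 6 libraries was most like the mean of the 7 hosts were named by Pearson's r of log2(FPKM + 1), as a description. The 5 closest were p120ctn (r = 0.999), gce (r = 0.998), tei (r = 0.998), CG17778 (r = 0.998) and CG40178 (r = 0.997). All 5 lay lower on spermidine food without overlap, and p120ctn had 75.7 ± 1.79 FPKM on spermidine food and 105 ± 9.75 FPKM on normal food (SD, n = 3 each). Among the hosts themselves r with that mean was 0.995 for Uhg1, 0.986 for Uhg5, 0.976 for Uhg3 and 0.959 for Uhg4, against 0.383 for Uhg8, 0.108 for Uhg7 and -0.691 for Uhg2. Each host is part of that mean, so its r is in part with itself, and these same values had chosen the hosts. Nothing is drawn from these r values. The 6 libraries behind each r are split over the 2 foods, so any gene that differs between the foods gains a high r of one sign.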

How the data were processed

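Stranded messenger RNA libraries of 3 brain samples on spermidine food and 3 on normal food were sequenced. The authors deposited 1 FPKM value per gene and library with a status flag, per the file headers. They also deposited mean normalized counts per food (a signal given only as group means), a signed fold change (a score, with every value at or beyond -1 or 1) and an unadjusted p-value. The submitters' processing notes list the authors' tools as HTSeq, Cufflinks and DESeq, with neither version nor role. Per the file headers, gene models came from Ensembl build 82. For the aligner, the sources used here give no name. The authors' means summed to 47904049 on spermidine food and 48052547 on normal food. FPKM sums ranged from 615229 to 720639 per library. The depth per library is unknown, so no counting intervals are given.

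Of 11 deposited sheets, the 1 with all 17483 genes was used, and 17179 gene IDs were matched to current symbols. Genes with a failed status in any library (215) were left out, and 3 or more libraries had to reach an FPKM of 0.5, which kept 10366. limma 3.58.1 (R 4.3.3) with an intensity trend was run on log2(FPKM + 1), two-sided, with no covariates and Benjamini-Hochberg adjustment at 0.05. This scale understates changes of low genes. A count test had been planned in case counts per library were given. The fit was tested on simulated data. The smallest p of an exact permutation test between these groups of 3 is 0.1.

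The 7 hosts, the lists and the naming rule were chosen with earlier results of these data known. Named besides the 7 hosts are list genes past the threshold or else the 2 with the smallest p, snoRNAs inside the hosts, the 5 genes of most similar pattern, and other hosts past the threshold with the next 3 by p. Fib, Nop60B, Arpc2, dom, Indy, the non-coding hosts, overlapping genes and neighbours were named after their values were seen. Alternatives covered scaling, pseudocount, filter, trend, replicate number as a block, each library left out, and the authors' counts and p-values.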

Additional observations from a re-analysis of the deposited data

How the results depend on the processing

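The 491 genes called split into 333 higher and 158 lower on spermidine food, and with upper-quartile scaling 640 split into 333 higher and 307 lower. The count was 261 with no filter on low values and 1752 with the authors' p-values, and it ran from 55 to 322 when each library was left out. With the replicate number as a block 257 genes were called, Uhg1 being the only host among them. No pairing by number was seen: the correlations of deviations between libraries of the same number were -0.05, -0.10 and 0.02. Such values cannot exclude that libraries of the same number were raised or prepared together, on which the labels say nothing. Of the listed genes 0 were called, with a range of 0 to 0 over the libraries left out, 1 with upper-quartile scaling (Tif-IA, lower) and 3 by the authors' p-values (Max, Tif-IA and Trf2, all lower). The number of hosts with a higher mean on spermidine food was 1 and ran from 1 to 2. Uhg7 turned to a log2 fold change of 0.14 without spermidine food replicate 2, and Uhg8 to 0.026 without spermidine food replicate 3. Over the libraries left out Uhg8 ran from -0.23 to 0.026 and Uhg7 from -0.30 to 0.14. Over 12 limma alternatives the log2 fold change ran from -1.46 to -1.20 for Uhg1, from -0.83 to -0.59 for Uhg5, from -0.94 to -0.67 for Uhg3, from -0.39 to -0.30 for Uhg4 and from 0.16 to 0.31 for Uhg2. The causes were not tested. Besides the libraries left out, the 4 hosts past the threshold were reduced to Uhg1 and Uhg4 with no filter, and to Uhg1, Uhg4 and Uhg5 without the intensity trend. Uhg7 and the hosted snoRNAs are limited by a few counts each.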
